A study of Mus musculus with 24 samples.

Results

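Klra1, Klra4, Klra7, Klre1 and Klrb1c are 5 genes of the killer cell lectin-like receptor family, out of 18470 gene rows with counts for 24 libraries made from memory B cells sorted from mice. They were chosen by name, after their counts in WT circulating libraries had been seen to stand far above those in WT lung libraries, so the WT difference between circulating and lung cells is given below as a description without a test. The SCAP cKO libraries, which are other libraries, and the comparison of genotypes within circulating cells carry the tests. Results for those libraries were also known when the genes were picked.

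The mice had an airway allergy, raised with intranasal house dust mite extract, and were exposed once more to this allergen 6 weeks later. SCAP cKO mice carried SCAP fl/fl hCD20-TamCre, and the deletion was induced before the second challenge. The WT mice were SCAP +/+ hCD20-TamCre and so carried the same Cre, which the human CD20 promoter drives and which acts in B cells once tamoxifen is given. SCAP is the escort protein that lets the sterol-sensing SREBP factors leave the endoplasmic reticulum. In each genotype 3 populations were sorted, namely circulating memory B cells and lung memory B cells that were CCR6+CD69+ or CCR6-CD69-. Each of the 6 groups had 4 libraries, with replicates 1 and 2 in batch 1 and replicates 3 and 4 in batch 2, as labelled. The labels give no strain, age or sex, do not say whether replicates were separate animals, and name lung B cells as the source of every sample, circulating ones included. P-values therefore measure the spread between these libraries, which may be technical.

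Killer cell lectin-like receptors are surface proteins of the C-type lectin fold that natural killer cells and some T cells carry, encoded side by side in the natural killer gene complex on mouse chromosome 6. The Klra genes encode the Ly49 receptors for class I histocompatibility molecules. Inhibitory Ly49 receptors carry a tyrosine-based inhibitory motif in their cytoplasmic tail and recruit phosphatases, whereas activating ones lack it and signal through the adaptor DAP12, encoded by Tyrobp. Each natural killer cell switches on only some of the Ly49 genes, so neighbouring cells carry different combinations, and the set of Ly49 genes in the genome differs between mouse strains. Klre1 encodes a receptor that pairs with KLRI partners, and Klrb1c encodes the activating receptor NKR-P1C, the marker on which natural killer cells of some mouse strains are sorted.

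The start of the 3 Ly49 coding sequences shows how alike these rows are and where the receptors part in function, so the first 60 coding bases of each are given from the GENCODE M21 transcripts. The capitals mark coding bases 22 to 24, the codon of the motif tyrosine in Klra1 and Klra7.
Klra1: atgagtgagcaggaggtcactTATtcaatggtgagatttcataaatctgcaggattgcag
Klra7: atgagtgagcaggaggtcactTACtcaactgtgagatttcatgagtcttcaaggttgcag
Klra4: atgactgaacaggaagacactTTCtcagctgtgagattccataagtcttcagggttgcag
Klra1 encodes Ly49A and Klra7 encodes Ly49G, both inhibitory. Klra4 encodes Ly49D, an activating receptor. Counting from 1 at the first coding base, Klra7 differed from Klra1 at 8 of the 60 bases, and at this codon by T24C, which leaves a tyrosine codon. Klra4 differed from Klra1 at 13 bases, and at this codon by A23T and T24C, which together give a phenylalanine codon. Over the aligned coding sequence, Klra1 was 88.9% identical to Klra4 and 88.0% identical to Klra7, and Klra4 was 84.8% identical to Klra7. Klre1 and Klrb1c shared between 60.3% and 66.8% with the Ly49 members over the aligned bases. Of all 75-base stretches of the transcript, 0.251% of those in Klra1, 0.342% in Klra4 and none in Klre1 occur in another gene, against 6.99% in Klra7, all of them in Klra13-ps, and 15.0% in Klrb1c, most of them in the predicted gene Gm44511. How the counting assigned reads that fit several genes, and whether it used strand, is not given in the sources used here, so the levels of Klra7 and Klrb1c are the less certain ones.

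Total counts ran from 129025 to 8566243 per library over the 24 libraries and from 356782 to 2466421 over the 8 circulating ones. Levels are counts per 1000000 counts of the library (CPM). A count of 0 allows up to 3 counts, which was between 1.22 and 8.41 CPM in circulating libraries and reached 23.3 CPM in the shallowest lung library. Such limits and the intervals of count ratios below cover counting error only. The B cell gene Ms4a1, which encodes CD20, was present in both circulating groups, at 608 ± 112 CPM in SCAP cKO and 557 ± 232 CPM in WT circulating libraries (SD, n = 4 each). Its lung means were above these, at 1542 ± 226.5 CPM in SCAP cKO and 1385 ± 123 CPM in WT lung CCR6+CD69+ libraries, and at 870.2 ± 215 CPM in SCAP cKO and 1066 ± 217 CPM in WT lung CCR6-CD69- libraries (SD, n = 4 each). Scap itself averaged 223 ± 152 CPM in SCAP cKO and 104 ± 84.5 CPM in WT circulating libraries (SD, n = 4 each), so these counts are not lower under the deletion label. The labels do not say which exons are removed, gene counts do not check it, and genotypes are used here as labelled.

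The inhibitory Ly49 receptors were well counted in most circulating libraries and nearly missing from lung ones. Klra1 had 1.64, 304, 201 and 150.0 CPM in SCAP cKO circulating replicates 1 to 4, and 0.442, 157, 42.2 and 238 CPM in WT circulating replicates 1 to 4. Replicate 1 was low in both genotypes, with 3 counts in SCAP cKO and 1 count in WT, and the genotypes overlapped. In the lung Klra1 had 1 or 2 counts in 5 of 16 libraries and 0 in the others, and its highest lung level was 0.842 CPM. Klra7 had 0, 81.5, 160.0 and 121 CPM in SCAP cKO circulating replicates 1 to 4, and 17.2, 440.0, 88.8 and 148 CPM in WT circulating replicates 1 to 4. It was again lowest in replicate 1 of each genotype, and the 0 in SCAP cKO replicate 1 allows up to 1.64 CPM. In the lung Klra7 was counted in 5 of 16 libraries, with 6 counts and 1.78 CPM at most.

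The activating Ly49 receptor Klra4 was the one member that stood well above its lung level in every circulating library. It had 378, 143, 42.0 and 68.3 CPM in SCAP cKO circulating replicates 1 to 4, and 189, 50.5, 80.3 and 99.1 CPM in WT circulating replicates 1 to 4. Every circulating library held Klra4 at 42.0 CPM or more, and it was highest in replicate 1 of each genotype, where Klra1 and Klra7 were lowest. In the lung it had 1.31, 2.39, 0 and 0 CPM in SCAP cKO CCR6+CD69+ replicates and 0.862, 2.53, 0 and 0 CPM in SCAP cKO CCR6-CD69- replicates, so circulating and lung libraries did not overlap. WT lung libraries reached 2.07 CPM at most.

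Klre1, the lectin-like receptor that pairs with KLRI partners, separated by batch in circulating libraries. It had 186, 132, 78.9 and 2.39 CPM in SCAP cKO circulating replicates 1 to 4, and 364, 297, 9.33 and 40.3 CPM in WT circulating replicates 1 to 4. The 4 circulating libraries of batch 1 stood above all 4 of batch 2. Within batch 1 its mean was 159 CPM in SCAP cKO and 331 CPM in WT circulating libraries, and within batch 2 it was 40.6 CPM in SCAP cKO and 24.8 CPM in WT circulating libraries (n = 2 each). In the lung Klre1 reached 3.02 CPM, above the 2.39 CPM of SCAP cKO circulating replicate 4, which rests on 5 counts, so the groups overlapped there.

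Klrb1c, the NKR-P1C gene, had 114, 123, 282 and 98.9 CPM in SCAP cKO circulating replicates 1 to 4, and 1.33, 149, 268 and 293 CPM in WT circulating replicates 1 to 4. WT replicate 1, with 3 counts, was the low library, while SCAP cKO replicate 1 was in the range of the others. In the lung, SCAP cKO CCR6+CD69+ replicates had 0.328, 0.478, 0 and 0 CPM and SCAP cKO CCR6-CD69- replicates had 1.29, 0, 0 and 0 CPM. One WT lung CCR6-CD69- library, replicate 3, stood apart with 27 counts and 17.1 CPM, and the other 3 libraries of that group had 0.

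**Figure D1:**
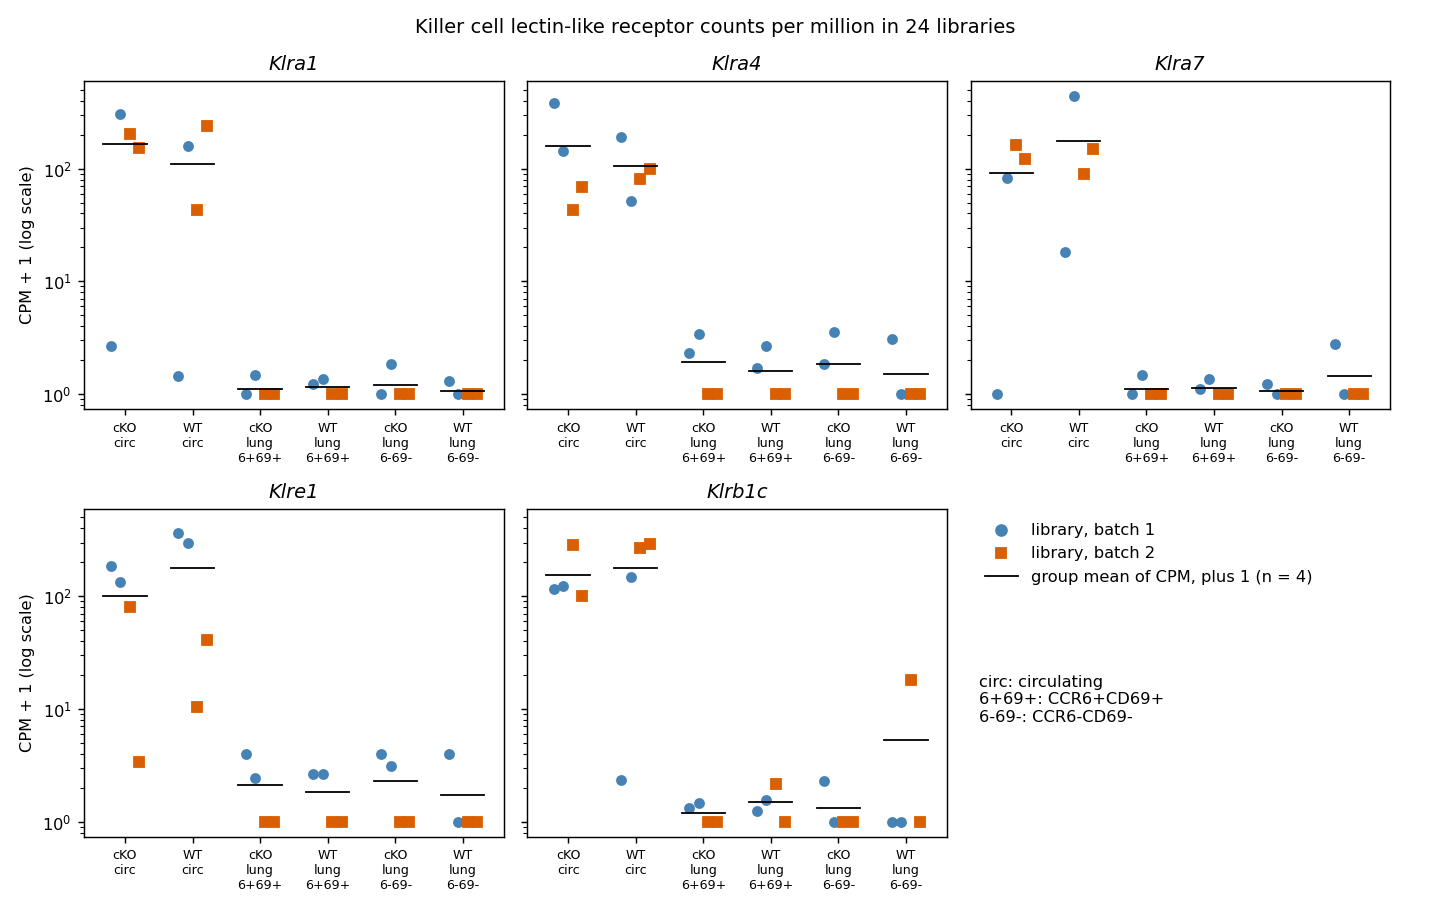
CPM plus 1 on a log scale for the 5 receptors in each of the 24 libraries, by group (circ, circulating; 6+69+, lung CCR6+CD69+; 6-69-, lung CCR6-CD69-), with circles for batch 1, squares for batch 2 and a line at the group mean plus 1 (n = 4). Circulating libraries reach up to 440.0 CPM while lung libraries lie at 17.1 CPM or below, and single circulating libraries drop below 3 CPM for Klra1, Klra7, Klre1 and Klrb1c but not for Klra4.

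Which receptors a circulating library held differed from library to library. Their sum varied less, as a sum of several varying genes tends to. With 3 or more counts as the limit of detection, all 5 were seen in 6 of 8 circulating libraries and 4 in the remaining pair, which lacked Klra7 in SCAP cKO replicate 1 and Klra1 in WT replicate 1. Summed over the 5 genes, SCAP cKO circulating replicates 1 to 4 had 679.5, 783, 763 and 441 CPM, and WT circulating replicates 1 to 4 had 572, 1093, 489 and 818 CPM. The gene with the most counts changed with the library. In SCAP cKO circulating libraries Klra4 led replicate 1 with 55.6% of the counts of the 5 genes (exact 95% interval 52.8% to 58.4%), Klra1 led replicate 2 with 38.8% and replicate 4 with 34.1%, and Klrb1c led replicate 3 with 36.9%. In WT circulating libraries Klre1 led replicate 1 with 63.6% (60.9% to 66.3%), Klra7 led replicate 2 with 40.3%, and Klrb1c led replicates 3 and 4 with 54.9% and 35.8%. Each of the 5 genes thus led at least 1 of the 8 libraries. These shares differ between replicates of the same group by more than counting error, as with 55.6% for Klra4 in SCAP cKO replicate 1 and 5.51% (4.20% to 7.08%) in SCAP cKO replicate 3. Wide spread between replicates was not particular to the receptors. The edgeR common dispersion over the tested genes was 1.20, and Scap ran from 0 to 203 CPM in WT circulating libraries.

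**Figure D2:**
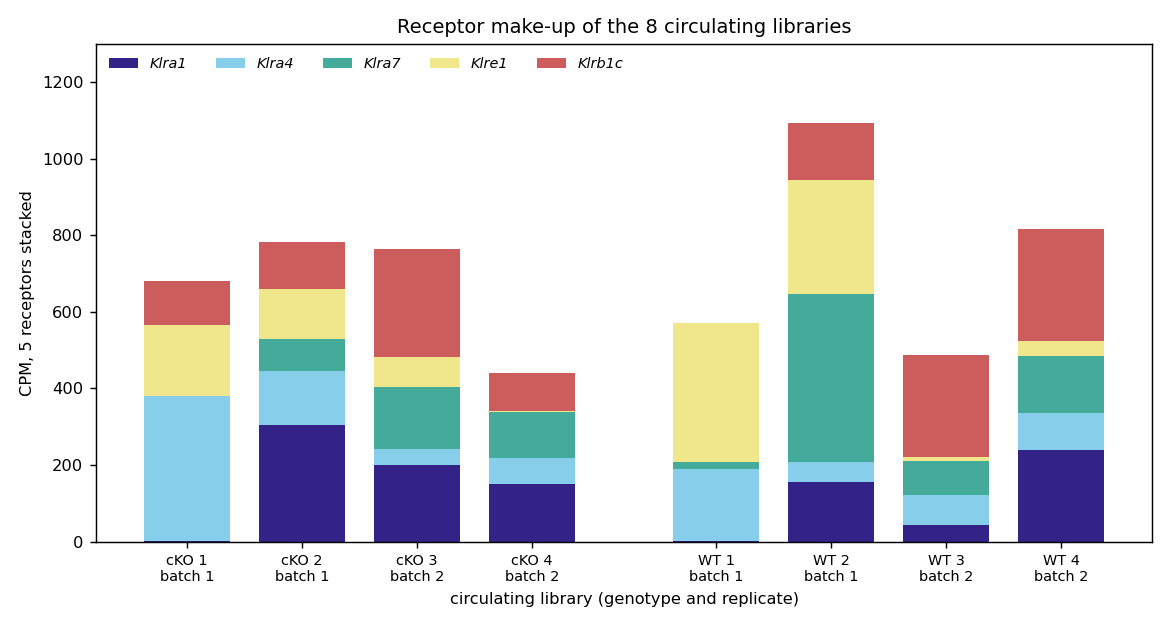
Stacked CPM of the 5 receptors in the 8 circulating libraries, SCAP cKO at the left and WT at the right, each bar 1 library with its batch. Total height runs from 441 to 1093 CPM, and the colour that takes most of the bar changes from library to library.

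Across the 8 circulating libraries the log2 CPM of the 10 pairs of receptors gave Pearson correlations between -0.83 for Klra4 with Klra7 and 0.75 for Klra1 with Klra7. Without the 2 libraries farthest from the median these became -0.32 and 0.27, so both rest on those libraries. The points share a library, its depth and its batch, and the values are descriptions of 8 libraries only. Divided by transcript length, to compare genes with each other, the mean levels in SCAP cKO circulating libraries were 127 ± 123 CPM per kb for Klra4, 98.3 ± 75.4 for Klra1, 82.1 ± 61.9 for Klra7, 77.0 ± 60.4 for Klre1 and 58.9 ± 32.6 for Klrb1c (SD, n = 4 each). In WT circulating libraries they were 157 ± 168 CPM per kb for Klra7, 137 ± 138 for Klre1, 84.1 ± 48.0 for Klra4, 67.7 ± 50.8 for Klrb1c and 65.6 ± 64.9 for Klra1 (SD, n = 4 each). No neighbours in either order differed by more than the larger of their SDs.

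The low lung counts followed the batch. In batch 1, 7 of 8 lung libraries held at least 1 count of the 5 genes, 148 counts in all, against 3675 in the 4 circulating libraries of that batch. In CPM, the lung level of each gene was a similar small share of its circulating level, namely 0.429% for Klra1, 0.605% for Klra4, 0.733% for Klra7, 0.804% for Klre1 and 0.613% for Klrb1c. In batch 2 the 8 lung libraries held no count of Klra1, Klra4, Klra7 or Klre1. Klrb1c had 31 counts there, 27 in WT lung CCR6-CD69- replicate 3 and 4 in WT lung CCR6+CD69+ replicate 3, and 1926 counts in the circulating libraries of that batch. What set these levels was not tested. In bulk libraries, fewer cells of a kind and less RNA per cell cannot be told apart.

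In SCAP cKO mice the 5 receptors were all higher in circulating than in lung CCR6+CD69+ libraries. CCR6+CD69+ is the lung population with both sorting markers. Which cells in the sorted samples carried the receptor RNA was not tested. Of 6779 genes tested over all 24 libraries, 1.46% were called higher in SCAP cKO circulating cells by edgeR's quasi-likelihood test at a Benjamini-Hochberg adjusted p under 0.05, and 5 of 5 receptors were among them. The receptors were chosen for being high in circulating cells with these libraries' results known, and with 2 to 15 counts in this lung group they passed the filter on low counts through circulating libraries, so this count and its direction are no independent support. For the inhibitory Klra1, 880 counts in SCAP cKO circulating against 2 in SCAP cKO lung CCR6+CD69+ libraries, each pooled over 4 libraries, gave an 856-fold higher rate with a 95% interval of 236 to 7080, and the edgeR log2 fold change was 10.09 ± 1.86 (SE, adjusted p = 9.87e-04). The inhibitory Klra7 rested on 548 circulating and 2 lung counts, a 533-fold higher rate (147 to 4413), with a log2 fold change of 9.44 ± 1.92 (SE, edgeR adjusted p = 0.00313). The width of both intervals comes from the 2 lung counts. The activating Klra4 had 1027 circulating and 14 lung counts, a 143-fold higher rate (84.7 to 262) and a log2 fold change of 8.03 ± 1.34 (SE, edgeR adjusted p = 8.17e-04). Klre1 had 577 circulating and 15 lung counts, a 74.8-fold higher rate (45.0 to 135) and a log2 fold change of 7.65 ± 1.38 (SE, edgeR adjusted p = 0.00159). Klrb1c had 915 circulating and 3 lung counts, a 593-fold higher rate (202 to 2883) and a log2 fold change of 9.17 ± 1.61 (SE, edgeR adjusted p = 0.00174). All 5 were called with each single library of the groups compared left out, 2 of 5 with batch 1 alone or with only the groups compared in the fit, and none with batch 2 alone, where each group has 2 libraries. Calls over all genes, in either direction, fell as well, from 104 in the main fit to 52, 69 and 15 in these 3 settings. Within batch 1 the log2 fold changes were 6.25 to 9.08, and within batch 2 SCAP cKO lung CCR6+CD69+ libraries had no count of the 5 genes.

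The same direction was seen against libraries of SCAP cKO lung CCR6-CD69- memory B cells, which lack both markers. Here 0.28% of the 6779 genes were called higher in SCAP cKO circulating cells by edgeR, and 5 of 5 receptors were among them. The choice of the genes and the filter bear on this count in the same way, with 1 to 19 counts in this lung group. Klra1 had 2 lung counts here, a 598-fold higher rate in circulating libraries (165 to 4949) and a log2 fold change of 9.37 ± 1.85 (SE, edgeR adjusted p = 0.0172). Klra7 had 1 lung count, a 745-fold higher rate (133 to 29488) and a log2 fold change of 9.90 ± 2.37 (SE, edgeR adjusted p = 0.0255). These single counts leave the size of the difference poorly known. Klra4 had 10 lung counts, a 139.7-fold higher rate (75.6 to 292) and a log2 fold change of 7.93 ± 1.44 (SE, edgeR adjusted p = 0.0150). Klre1 had 19 lung counts, a 41.3-fold higher rate (26.2 to 69.1) and a log2 fold change of 7.29 ± 1.45 (SE, edgeR adjusted p = 0.0274). Klrb1c had 6 lung counts, a 207-fold higher rate (94.9 to 567) and a log2 fold change of 7.98 ± 1.59 (SE, edgeR adjusted p = 0.0274). The calls depended on single libraries: 1 receptor was called without SCAP cKO lung CCR6-CD69- replicate 1, 2 without replicate 2 or replicate 3 of that group, 2 without SCAP cKO circulating replicate 1, and 1 without the 2 libraries under 500000 counts. None was called within batch 1 alone, where the log2 fold changes were 6.03 to 8.62, or within batch 2 alone, where these lung libraries had no count of the 5 genes. Over all genes calls went from 21 in the main fit to 1 in batch 1 alone and 11 in batch 2 alone.

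**Figure D3:**
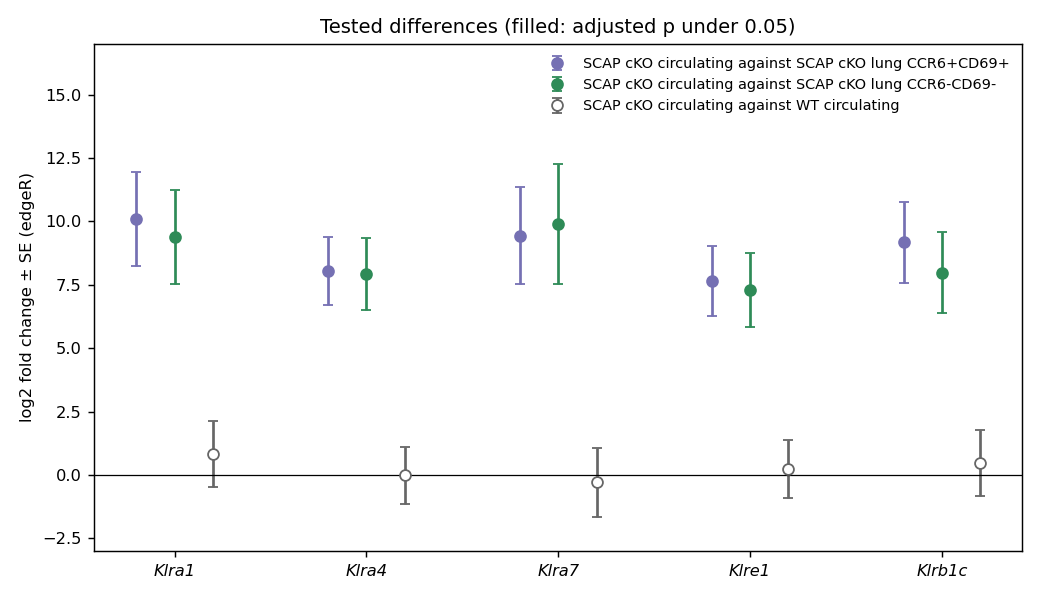
edgeR log2 fold change of each receptor with its SE in 3 comparisons, SCAP cKO circulating against SCAP cKO lung CCR6+CD69+, against SCAP cKO lung CCR6-CD69- and against WT circulating, with filled points where the adjusted p was under 0.05. The 10 differences against lung lie between 7.29 and 10.09, and the 5 between genotypes lie between -0.30 and 0.82.

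For WT mice, whose libraries were used to pick the genes, the values are given without a test. Pooled rates in WT circulating libraries were 485-fold (Klra1), 159-fold (Klra4), 688-fold (Klra7), 124-fold (Klre1) and 422-fold (Klrb1c) those in WT lung CCR6+CD69+ libraries. Against WT lung CCR6-CD69- libraries they were 771-fold (Klra1), 135-fold (Klra4), 137-fold (Klra7), 113-fold (Klre1) and 56.0-fold (Klrb1c). The lung sums behind them were 1 to 27 counts.

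Between genotypes no difference in the 5 receptors was detectable in circulating libraries. The edgeR test called 0% of the 6779 genes in this comparison, with 693 at an unadjusted p under 0.05, and 0 of 5 receptors. DESeq2 called 3.58% of the genes it adjusted and limma voom 0 genes, with 0 of 5 receptors in either. Klra1 averaged 164 ± 126 CPM in libraries labelled SCAP cKO and 109 ± 108 CPM in WT ones (SD, n = 4 each), a log2 fold change of 0.82 with a 95% interval of -1.80 to 3.45. Klra7 averaged 90.6 ± 68.4 CPM in SCAP cKO and 173 ± 186 CPM in WT, a log2 fold change of -0.30 (-3.05 to 2.45). For both inhibitory receptors the SD was close to the mean or above it in WT, and smaller than the mean but of like size in SCAP cKO. Klra4 averaged 158 ± 153 CPM in SCAP cKO and 105 ± 59.7 CPM in WT, a log2 fold change of -0.02 (-2.27 to 2.24). Klre1 averaged 99.7 ± 78.2 CPM in SCAP cKO and 178 ± 179 CPM in WT, a log2 fold change of 0.23 (-2.06 to 2.52). Klrb1c averaged 154 ± 85.4 CPM in SCAP cKO and 178 ± 133 CPM in WT, a log2 fold change of 0.46 (-2.14 to 3.07). The edgeR adjusted p-values were 0.891 to 0.985, and for 4 of the 5 genes the interval leaves room for a 4-fold difference either way. The fitted fold changes of Klra4, Klre1 and Klrb1c have the opposite sign to the difference of the CPM means. The sign within batches differed for 4 of the 5 genes, as with Klra4 at 1.27 in batch 1 and -0.73 in batch 2, and Klra1 was positive in both, at 1.47 and 0.31.

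Other rows of the family were tested likewise. Of 25 further family symbols looked for, 11 had a row and 6 of these passed the filter on low counts, a filter that a gene can pass through its circulating libraries alone. Against SCAP cKO lung CCR6+CD69+ libraries 2 of 6 were called higher in SCAP cKO circulating libraries, where 1.46% of all genes were. The fold change was positive for all 6. Its median log2 value was 7.70, or 6.57 with genes at 0 in the lung set at their lower bound. Klra8 encodes Ly49H, the activating receptor for a cytomegalovirus protein, and had 159, 139, 272 and 0 CPM in SCAP cKO circulating replicates 1 to 4 and 36.7, 36.4, 34.5 and 119.9 CPM in WT circulating replicates 1 to 4. Its edgeR log2 fold change was 8.85 ± 1.65 in SCAP cKO (adjusted p = 0.00489) and 8.39 ± 1.67 in WT circulating against lung CCR6+CD69+ cells (adjusted p = 0.00999), where 1.02% of genes were called higher and 1 of 6 family rows was. Klra3, the inhibitory Ly49C gene, had 0, 43.9, 75.2 and 0 CPM in SCAP cKO circulating replicates 1 to 4, against 0 in all 4 SCAP cKO lung CCR6+CD69+ libraries. Its pooled rate was at least 93.4-fold higher in circulating libraries, with 3 counts over the lung group as the floor (edgeR adjusted p = 0.0333). Without SCAP cKO circulating replicate 3 neither Klra3 nor Klra8 was called, and without any 1 of the 4 lung libraries or circulating replicate 2 the count was 1. In WT the call was lost without WT lung CCR6+CD69+ replicate 1, 3 or 4, and 2 were called without WT circulating replicate 2 or 3.

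Against lung CCR6-CD69- cells 0 of the 6 rows were called in SCAP cKO, with a median log2 fold change of 6.54 against 0.26 over all genes, and 0 of 6 in WT, with 4.99 against -0.12 over all genes. In SCAP cKO 0.28% of all genes were called higher in circulating cells there. In those comparisons 960 genes in SCAP cKO and 585 in WT had an unadjusted p under 0.05, and DESeq2, which called 8.15% and 1.92% of the genes it adjusted, called 2 of the 6 rows in SCAP cKO and 4 in WT. In WT 0.148% of genes were called higher in circulating cells, and 1 of the 6 rows was called without WT circulating replicate 1 or without WT circulating replicate 2. Since the 6 rows could pass the filter through circulating libraries alone, the direction of their fold changes is given as a description.

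Several of these rows were seen in some circulating libraries and absent from others. Klra9, the inhibitory Ly49I gene, was at 0 in all 12 libraries of batch 1, and had 23.6 and 242 CPM in SCAP cKO circulating replicates 3 and 4 and 36.5 and 81.4 CPM in WT circulating replicates 3 and 4. It thus appeared in every circulating library of batch 2 and in none of batch 1, and its only lung counts were 6 in WT lung CCR6-CD69- replicate 3. Klrb1b, an inhibitory receptor for Clec2d, had 1.10, 1.04, 111 and 0 CPM in SCAP cKO circulating replicates 1 to 4 and 219.6, 30.8, 28.0 and 95.7 CPM in WT circulating replicates 1 to 4. In the lung it reached 39.8 CPM, in SCAP cKO CCR6+CD69+ replicate 4. Between genotypes its edgeR log2 fold change was -3.42 ± 1.62 (SE) with adjusted p = 0.573, and 0 of 6 rows were called, where 0% of all genes were. Klrb1f, a receptor for Clec2g, had 43.8, 88.8, 111 and 0 CPM in SCAP cKO circulating replicates 1 to 4 and 3.54, 384, 76.6 and 26.0 CPM in WT circulating replicates 1 to 4. SCAP cKO circulating replicate 4 was thus at 0 for Klra3, Klra8, Klrb1b and Klrb1f while it held the highest Klra9. Klra13-ps, a pseudogene row that shares sequence with Klra7, had 115 CPM in WT circulating replicate 1 and 35.9 CPM in WT circulating replicate 4, and 4.93 CPM at most in SCAP cKO circulating libraries. Klrb1a reached 15.3 CPM in SCAP cKO and 75.7 CPM in WT circulating libraries, and Klrc3, which encodes NKG2E, was counted in 1 SCAP cKO and 1 WT circulating library, at 26.8 and 5.63 CPM. Klra14-ps had a single count, and Klrg2 and Klri1, a known partner of Klre1, were at 0 in all 24 libraries.

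**Figure D4:**
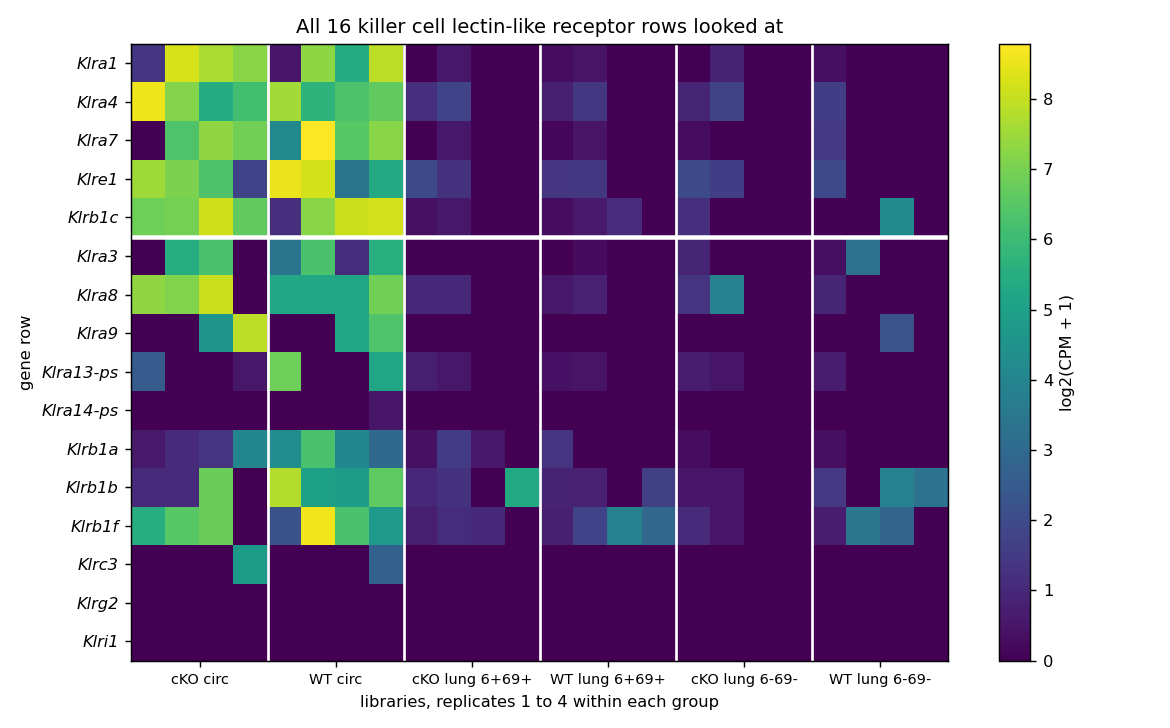
Heat map of log2(CPM + 1) for the 5 receptors (above the white line) and the 11 other family rows in the 24 libraries, replicates 1 to 4 from left to right within each group. The circulating columns at the left hold most of the signal, in patches that differ between replicates, such as Klra9 in batch 2 libraries; Klrb1b in 1 lung library, at 39.8 CPM, is the brightest cell outside them.

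Of the adaptor and signalling genes that these receptors use, 13 were tested. Of these 13, 2 were called higher in SCAP cKO circulating than in SCAP cKO lung CCR6+CD69+ cells, where 1.46% of all genes were. The median log2 fold change of the 13 was 0.91 against 0.01 over all genes. The called genes were Tyrobp and Fcer1g, which encode adaptors of activating receptors. Tyrobp averaged 922 ± 760 CPM in SCAP cKO circulating and 32.3 ± 11.4 CPM in SCAP cKO lung CCR6+CD69+ libraries (SD, n = 4 each; edgeR log2 fold change 4.74 ± 0.62, SE, adjusted p = 1.40e-05). Fcer1g, the Fc receptor gamma chain, averaged 506 ± 397 CPM in SCAP cKO circulating and 31.0 ± 45.1 CPM in SCAP cKO lung CCR6+CD69+ libraries (SD, n = 4 each; edgeR log2 fold change 4.38 ± 0.74, SE, adjusted p = 7.58e-04). Both were also called in WT circulating against WT lung CCR6+CD69+ cells, at 4.44 ± 0.62 and 4.02 ± 0.74 (SE). In that comparison 1.02% of all genes were called higher. Hcst, which encodes DAP10, another adaptor of activating receptors, was not called, with 1.04 ± 0.855 CPM in SCAP cKO circulating and 1.72 ± 2.01 CPM in SCAP cKO lung CCR6+CD69+ libraries, and with 0.110 ± 0.221 CPM in WT circulating and 9.27 ± 11.1 CPM in WT lung CCR6+CD69+ libraries (SD, n = 4 each). Ptpn6, the SHP-1 phosphatase that inhibitory receptors recruit, had 1589 ± 907 CPM in SCAP cKO circulating and 1677 ± 183 CPM in SCAP cKO lung CCR6+CD69+ libraries (SD, n = 4 each) and was not called. Against lung CCR6-CD69- cells 0 of 13 adaptor genes were called in either genotype. Over all genes 0.28% in SCAP cKO and 0.148% in WT were called higher there. Tyrobp averaged 333 ± 326 CPM in SCAP cKO and 284 ± 280 CPM in WT lung CCR6-CD69- libraries.

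Of the ligand genes, 6 were tested, and 0 were called in 4 of the comparisons. In SCAP cKO circulating against SCAP cKO lung CCR6+CD69+ cells 1 of 6 was called higher, where 1.46% of all genes were. It was Cdh1, E-cadherin and a ligand of another family member, KLRG1, with 255 ± 103 CPM in SCAP cKO circulating and 3.36 ± 2.24 CPM in SCAP cKO lung CCR6+CD69+ libraries (SD, n = 4 each; edgeR adjusted p = 5.01e-04). The class I genes that Ly49 receptors recognise were present throughout, with H2-D1 at 4737 ± 912 CPM in SCAP cKO circulating and 4063 ± 1136 CPM in SCAP cKO lung CCR6+CD69+ libraries (SD, n = 4 each). H2-D1 was not called, nor was B2m, the class I light chain.

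Most, but not all, tested genes of a natural killer cell list were called higher along with the receptors against SCAP cKO lung CCR6+CD69+ cells. Of 32 natural killer symbols looked for, 20 had a row and 18 were tested. Of the 18, 12 were called higher in SCAP cKO circulating than in SCAP cKO lung CCR6+CD69+ cells, against 1.46% of all genes tested. The median log2 fold change of the 18 was 6.50 against 0.01 over all genes. In WT 10 of 18 were called higher, against 1.02% of all genes. A listed gene can pass the filter on low counts through its circulating libraries alone, so these counts and their direction are descriptions. The fold change was negative for 2 of the 18 in SCAP cKO, neither of them called. Sh2d1b1, the signalling adaptor gene EAT-2, averaged 3.24 ± 4.18 CPM in SCAP cKO circulating and 57.5 ± 20.1 CPM in SCAP cKO lung CCR6+CD69+ libraries (SD, n = 4 each; edgeR adjusted p = 0.338). Cd244a, the receptor gene 2B4, averaged 18.5 ± 7.25 CPM in SCAP cKO circulating and 105 ± 42.6 CPM in SCAP cKO lung CCR6+CD69+ libraries (SD, n = 4 each; edgeR adjusted p = 0.373). Both were named after their values were seen. Against lung CCR6-CD69- cells 3 of 18 were called in SCAP cKO, namely Ncr1, Nkg7 and Eomes, where 0.28% of all genes were called higher. In WT it was 5 of 18, where 0.148% of all genes were. The fold change was negative for 3 of 18 in SCAP cKO and 2 of 18 in WT, none called. Leaving out Irf8, which B cells also use, the summed level of the list was 3497 to 4856 CPM in SCAP cKO circulating and 2324 to 4560 CPM in WT circulating libraries. In lung CCR6+CD69+ libraries it was 294 to 392 CPM in SCAP cKO and 215 to 311 CPM in WT, and in lung CCR6-CD69- libraries 378 to 2883 CPM in SCAP cKO and 459 to 679 CPM in WT. The 2883 CPM came from SCAP cKO replicate 4, the shallowest library with 129025 counts. Replicates 1 to 3 of that group had 378 to 822 CPM. The activating receptor gene Ncr1 averaged 246 ± 318 CPM in SCAP cKO circulating libraries and 0.612 ± 0.933 CPM in SCAP cKO lung CCR6+CD69+ libraries, and the transcription factor gene Eomes 453 ± 370 CPM in SCAP cKO circulating and 0.687 ± 0.795 CPM in SCAP cKO lung CCR6+CD69+ libraries (SD, n = 4 each). Of the list, Gzmc was at 0 in all groups, S1pr5 in the SCAP cKO and WT lung CCR6+CD69+ and SCAP cKO lung CCR6-CD69- groups, and Il12rb2 in SCAP cKO lung CCR6+CD69+. The part of natural killer cells in the receptor result was not tested.

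Marker lists of other cells differed to varying degrees. In circulating against lung CCR6+CD69+ cells, 1.46% of all genes tested were called higher in SCAP cKO and 1.02% in WT. The T cell list, 8 rows, summed to 313 to 1685 CPM in SCAP cKO and 412 to 704 CPM in WT circulating libraries, and to at most 545 CPM in any lung library. Of its 7 tested genes only Cd4 was called, in circulating against lung CCR6+CD69+ cells of both genotypes, and Themis was at 0 in both circulating groups. The plasmacytoid dendritic cell list, 6 rows, had 5 of 6 called against lung CCR6+CD69+ cells in each genotype, Lifr among them. Its median log2 fold change there was 6.29 in SCAP cKO and 6.58 in WT, against 6.50 and 5.97 for the natural killer cell list. Against lung CCR6-CD69- cells 0 of 6 were called in either genotype. The list summed to 2152 to 3651 CPM in SCAP cKO circulating, 2037 to 3124 CPM in WT circulating and at most 3216 CPM in lung libraries. This highest lung sum was in SCAP cKO lung CCR6-CD69- replicate 4, which has 129025 counts. The B cell list, 8 rows, summed to 10737 to 15822 CPM in SCAP cKO and 10963 to 18765 CPM in WT circulating libraries. Lung CCR6+CD69+ libraries had 22125 to 29457 CPM in SCAP cKO and 21081 to 31490 CPM in WT. Lung CCR6-CD69- libraries had 9704 to 23270 CPM in SCAP cKO, overlapping circulating ones, and 18923 to 28153 CPM in WT. The overlap came from SCAP cKO replicate 4 alone, the shallowest library with 129025 counts. Replicates 1 to 3 of that group had 20715 to 23270 CPM. Against lung CCR6+CD69+ cells, 3 of its 8 genes were higher in circulating cells of each genotype. In SCAP cKO 1 was called higher and 1 lower, and in WT 1 was called higher and 0 lower. Of the remaining lists, 2 of 2 plasma cell genes (Jchain and Sdc1), 1 of 11 macrophage and monocyte genes (Ccr2), 0 of 6 innate lymphoid cell genes and 0 of 5 granulocyte genes were called higher in SCAP cKO circulating than in SCAP cKO lung CCR6+CD69+ cells. Their part in the receptor result was not tested.

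**Figure D5:**
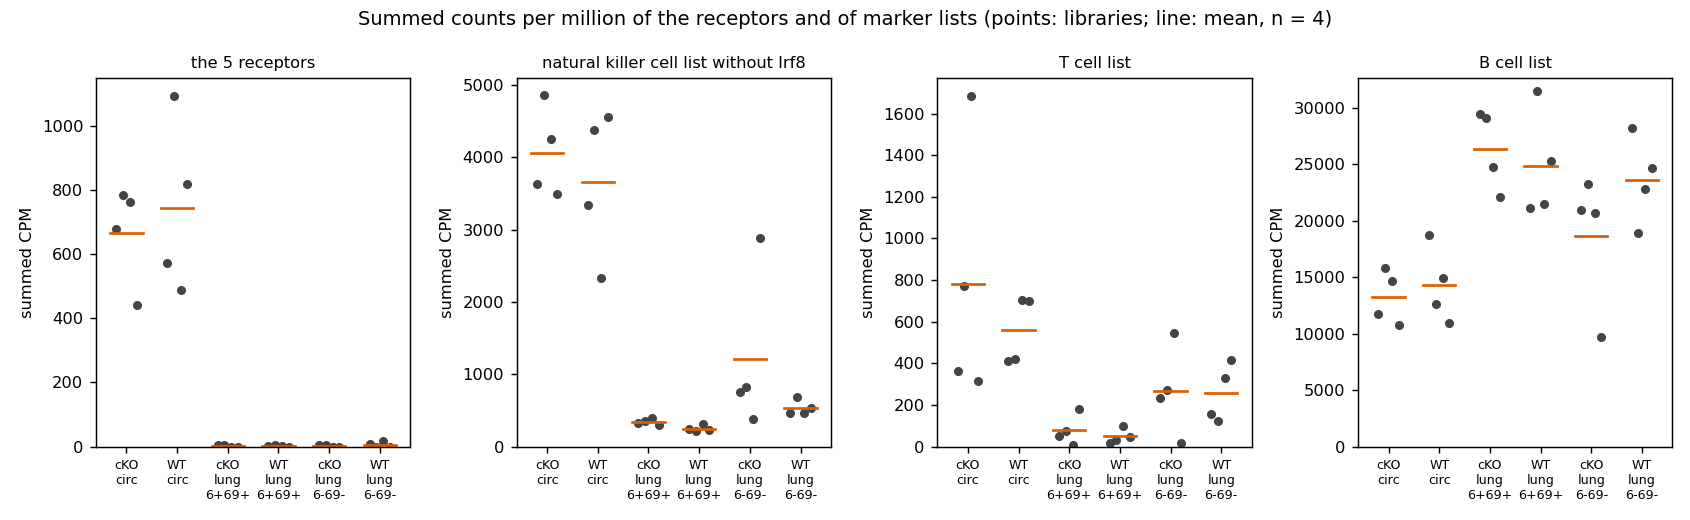
Summed CPM of the 5 receptors, of the natural killer cell list without Irf8, of the T cell list and of the B cell list in each library, with a line at the group mean (n = 4). The receptors sum to at least 441 CPM in circulating and at most 17.1 CPM in lung libraries, while the other sums overlap in part, with 1 SCAP cKO lung CCR6-CD69- library at 2883 CPM for the natural killer cell list. That library is replicate 4, the shallowest of all with 129025 counts.

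Over the 24 libraries, the genes whose log2 CPM followed the mean of the 5 receptors most closely were Nkg7 (Pearson r = 0.95), Eomes (0.94), Samd3 (0.94), Ncr1 (0.94) and Styk1 (0.93), while 99% of tested genes had r below 0.64. The libraries fall into separate circulating and lung clusters, and r over all 24 is taken across both. Nkg7, a cytotoxic granule membrane protein gene, ranged from 281 to 1354 CPM over the 8 circulating libraries, and its counts were 8533 in circulating and 246 in lung libraries. Within the 8 circulating libraries other genes followed the receptors, namely Myof (r = 0.96), Dusp6 (0.92), Xpr1 (0.90), Crtc3 (0.90) and Zfp326 (0.90), and 99% of genes had r below 0.75. Without the 2 libraries farthest from the median their values were between 0.76 and 0.95 over 6 libraries. Unlike Nkg7, these were counted in lung libraries as well, Myof, a membrane repair protein gene, with 931 counts in circulating and 3326 counts in lung libraries, and none of them was among the 5 closest over the 24 libraries. All these genes share libraries and depth with the receptors, and the correlations are descriptions. Taking the 5 highest of all tested genes over only 8 libraries can give high r through the choice alone.

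Since Eomes, a T-box factor gene, was among the genes closest to the receptors, the promoter windows of the RefSeq table for build GRCm38.p6, 250 bases before to 50 after each annotated gene start, were searched for the T-box core GTGTGA on both strands. All 5 genes had a window. The letters occurred in Klra1 and in Klre1 and in no window of Klra4, Klra7 or Klrb1c, and 14.5% of all 32851 windows hold them. The RUNX core TGTGGT, searched likewise, occurred in Klra1, Klrb1c and 1 of the windows of Klre1, and in 16.8% of all windows. Klre1 has a pair of overlapping windows, 1 for each annotated start, and the same T-box core match lies in both. The Klra1 window and 1 of these Klre1 windows are shown with the match in capitals, 5′ to 3′ on the strand of the gene, Klra1 at chr6:130386825-130387124 on the minus strand and the second Klre1 window at chr6:129578036-129578335 on the plus strand.
Klra1: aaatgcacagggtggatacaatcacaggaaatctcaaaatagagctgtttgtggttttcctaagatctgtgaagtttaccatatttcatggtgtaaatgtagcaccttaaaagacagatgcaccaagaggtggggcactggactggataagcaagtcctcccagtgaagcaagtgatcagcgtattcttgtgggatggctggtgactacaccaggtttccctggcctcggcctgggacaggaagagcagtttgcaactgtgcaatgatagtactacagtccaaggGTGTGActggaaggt
Klre1: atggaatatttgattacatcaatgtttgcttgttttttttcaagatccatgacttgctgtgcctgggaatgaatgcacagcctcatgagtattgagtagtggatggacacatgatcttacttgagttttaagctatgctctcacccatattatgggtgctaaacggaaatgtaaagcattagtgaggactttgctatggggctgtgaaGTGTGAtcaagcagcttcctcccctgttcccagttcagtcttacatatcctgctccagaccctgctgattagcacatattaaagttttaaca
The Klra1 match lies 35 bases after the annotated start. The Klre1 match lies 31 bases after the first annotated start and 42 bases before the second, in whose window it is shown. The promoter of Klra4 is closer to the second window of Klra7, with 79.9% identity over aligned bases, than to that of Klra1, with 59.3%. A match of letters is a description of the sequence, and nothing about binding was measured here.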

How the data were processed

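Per the labels' protocols, polyA RNA from a Zymo microprep kit went into xGen libraries scaled to low cell numbers. The authors deposited a table of counts for 18470 gene rows and 24 libraries. STAR, Salmon, FastQC and build mm39 are listed in the submitters' processing notes with neither version nor role. Every value below was computed from those counts: CPM is a count per 1000000 counts of the library, with no length or composition correction, and precision is set by totals of 129025 to 8566243. Tests used edgeR 4.0.16 (quasi-likelihood, robust) in R 4.3.3 with TMM factors, on 6779 genes kept by filterByExpr, in 1 model of the 6 groups with batch as a term, with Benjamini-Hochberg adjustment over all of them. The call was an adjusted p under 0.05. Standard errors come from the fitted weights and the moderated dispersion, and are not given where a group had 0 counts. Alternatives were DESeq2 1.42.0, limma voom 3.58.1, other factors, filters and designs, and single libraries left out. The test was also run on simulated counts, and the outcome is not given here. Any 2 libraries differed in the count of at least 4875 genes, so none was a copy. The labels do not say whether same-numbered libraries of different populations came from the same animals, and the main model did not pair them. Members, lists, tests and alternatives were chosen with earlier results of these data known. The text names the 5 members, family rows that passed or had the most counts, up to 4 genes of each other list by counts or calls, and the 5 genes closest to the members over 24 and over 8 libraries. Lists cover 183 symbols, 109 with a row; the rest were not analysed here. Coding sequences came from GENCODE M21 (GRCm38) and promoters from RefSeq (GRCm38.p6), and no coordinate was moved between builds.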

Additional observations from a re-analysis of the deposited data

Results flagged for a closer look

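In groups of 4, a library was marked where its gap to the nearest of the others, over the range of the group, passed Dixon's 95% critical value. Of 22 groups tested over the 5 receptors 6 held such a library, where chance marks about 1 in 20, and groups in which the other libraries are at 0 pass easily. Klrb1c had 282 CPM in SCAP cKO circulating replicate 3, while the other 3 libraries of that group lay between 98.9 and 123 CPM. Klrb1c had 1.29 CPM in SCAP cKO lung CCR6-CD69- replicate 1 and 17.1 CPM in WT lung CCR6-CD69- replicate 3, with the other 3 libraries of each group at 0. WT lung CCR6-CD69- replicate 1 stood apart for Klra4 with 2.07 CPM, for Klra7 with 1.78 CPM and for Klre1 with 2.96 CPM, again with the other 3 libraries at 0.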

How the results depend on the processing

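Of the member fold changes recomputed under alternatives, 233 kept their direction and side of the threshold, 54 kept the direction but lost the call and 22 changed sign, all of the last between genotypes. Against SCAP cKO lung CCR6+CD69+ cells, 5 members were called with any 1 library left out, 2 with batch 1 alone, 0 with batch 2 alone and 2 with only the groups compared. Calls over all genes, in either direction, were 104 in the main fit there. They were 80 without the batch term, 52 with batch 1 alone, 15 with batch 2 alone and 69 with only the groups compared. Against SCAP cKO lung CCR6-CD69- cells the count of 5 became 2 with limma voom, 1 without the batch term, 0 in batch 1, 0 in batch 2 or with only the groups compared, 1 without libraries under 500000 counts and 1 without the 2 libraries led by Chil3, and was 1 to 5 with 1 library left out. Over all genes, calls in this comparison were 21 in the main fit, 12 with limma voom and 9 without the batch term. They were 1 in batch 1, 11 in batch 2 and 4 with only the groups compared. Without libraries under 500000 counts they were 10, and without libraries led by Chil3 31. Correlations of same-numbered deviations within batches were -0.03 to 0.09. With 2 libraries of each group in each batch, they cannot decide whether replicate numbers pair samples. A replicate block in place of batch, shared by both genotypes, gave 2 members called against SCAP cKO lung CCR6-CD69- cells. With that block 1 of the other family rows was called against SCAP cKO lung CCR6+CD69+ cells. Over all genes the block gave 12 calls against SCAP cKO lung CCR6-CD69- cells and 95 against SCAP cKO lung CCR6+CD69+ cells. For those other rows, the 2 called against SCAP cKO lung CCR6+CD69+ cells became 1 without the batch term, 0 in batch 1, 0 in batch 2 and 0 with only the groups compared, and were 0 to 3 with 1 library left out. Against SCAP cKO lung CCR6-CD69- cells DESeq2 called 2 of them, where it called 8.15% of the genes it adjusted. In WT the 1 call against lung CCR6+CD69+ cells became 4 with DESeq2, 5 with limma voom, 3 without a filter, 0 without the batch term, 0 in batch 1, 0 in batch 2, 2 with only the groups compared and 3 without libraries under 500000 counts, and was 0 to 2 with 1 library left out. Against WT lung CCR6-CD69- cells the 0 became 4 with DESeq2, 2 with limma voom, 1 without a filter and 1 without libraries under 500000 counts, and was 0 to 1 with 1 library left out. DESeq2 called 1.92% of the genes it adjusted there. For the remaining WT alternatives calls over all genes are not given here, so these counts are not set against them. Between genotypes the sign changed for Klra4 with DESeq2 (0.051), limma voom (0.63), no batch term (1.07), batch 1 alone (1.27), only the groups compared (0.39) and 1 library left out (-0.53 to 0.43). It changed for Klra7 with batch 2 alone (0.23), without libraries under 500000 counts (0.13) and with 1 library left out (-0.78 to 0.22). It changed for Klre1 with limma voom (-0.28), no batch term (-0.41), the replicate block (-0.16), batch 1 alone (-0.80) and 1 library left out (-1.53 to 0.77), and for Klrb1c with batch 2 alone (-0.58) and 1 library left out (-0.055 to 0.82). The causes were not tested. The depth of the lung libraries limits all ratios, since 3 counts were between 0.350 and 23.3 CPM.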
